A study of Mus musculus with 6 samples.

Results

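Transcripts of 10 natural killer (NK) cell receptor genes were followed in 6 subcutaneous mouse melanomas, 3 grown from vector control B16 cells and 3 from ATM KO B16 cells. The genes are Ncr1, Klrb1c, Klre1, Klrd1, Klrk1, Klrc1, Klra4, Klra7, Klra8 and Il2rb, chosen by symbol as receptors of NK cells, though not all are particular to them. They are 10 of the 55536 genes listed in the count files. Each group is labelled only by the injected cells: both were placed in C57BL/6J hosts, tumors were taken on day 13, and total RNA of whole tumor tissue was sequenced. ATM is the kinase that signals broken DNA, and the series title links its loss to leaked mitochondrial DNA, the sensor cGAS and its partner STING, and immunotherapy. The labels do not give how ATM was removed, whether the knockout cells are 1 clone, or whether every tumor had its own host. The p-values therefore set the group difference only against the spread among these 6 samples. The 3 tumors of a group may not be independent replicates of the knockout or the control. NK cell transcripts in such tissue come from host cells, whose Atm gene is intact, and in bulk tissue fewer cells of a type and less RNA per cell cannot be told apart.

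NK cells are innate lymphocytes that kill without prior priming, and they weigh signals from activating receptors against signals from inhibitory ones. Activating receptors carry short tails and signal through adaptors such as DAP10 and DAP12, whereas inhibitory receptors carry a tyrosine motif that recruits phosphatases when they bind MHC class I molecules on healthy cells. In the mouse most of these receptors are C-type lectin-like proteins encoded side by side in the NK gene complex. Interleukin-15, read through the receptor chain encoded by Il2rb, keeps NK cells alive. Several of the genes are also transcribed by activated cytotoxic T cells, among them Klrk1, Klrd1, Klrc1 and Il2rb, whereas Ncr1, Klrb1c and the Klra genes are more closely tied to NK cells and their innate relatives.

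Of the 10 genes, 8 lie on chromosome 6 between 128778485 and 130233322 (GRCm38), in the order Klrb1c, Klre1, Klrd1, Klrk1, Klrc1, Klra4, Klra8 and Klra7, while Ncr1 lies on chromosome 7 (4337724 to 4345164) and Il2rb on chromosome 15 (78479256 to 78495271). RefSeq promoter windows (250 bases before to 50 after a start site, GRCm38.p6) were found for 8 of the 10 genes, in 12 windows of which some overlap. The letters TGTGGT, the core bound by RUNX factors, were searched on both strands. They stand in 6 of these 12 windows, from 5 genes (Klrb1c, Klrc1, Klre1, Klrk1 and Ncr1), and in 16.8% of all 32851 promoter windows of the same length. The T-box letters GGTGTGA are in 0 of the 12 and in 3.98% of all windows, the letters TTCNNNGAA, read by STAT factors, in 1 and 8.30%, and the ETS letters AGGAAG in 3 and 35.4%. A match is a description of letters and not a binding site. The windows of 3 of these genes are shown as examples: Ncr1 (chr7:4337465-4337764, plus strand), Klrb1c (chr6:128788592-128788891, minus strand) and Klrk1 (chr6:129623815-129624114, minus strand). Capitals mark TGTGGT or its reverse complement, and each sequence reads 5′ to 3′ along the gene's strand.
Ncr1: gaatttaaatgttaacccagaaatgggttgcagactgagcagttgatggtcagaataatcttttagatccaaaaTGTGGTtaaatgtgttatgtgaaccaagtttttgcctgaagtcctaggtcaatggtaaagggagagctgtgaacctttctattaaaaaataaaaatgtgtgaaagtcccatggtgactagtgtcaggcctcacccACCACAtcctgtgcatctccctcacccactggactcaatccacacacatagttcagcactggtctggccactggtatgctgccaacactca
Klrb1c: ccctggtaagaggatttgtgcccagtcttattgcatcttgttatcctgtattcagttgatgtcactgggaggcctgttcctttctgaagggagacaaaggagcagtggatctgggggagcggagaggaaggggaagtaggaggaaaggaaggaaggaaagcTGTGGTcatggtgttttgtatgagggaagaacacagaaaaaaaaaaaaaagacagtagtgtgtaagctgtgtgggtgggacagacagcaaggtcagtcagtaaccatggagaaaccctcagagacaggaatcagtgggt
Klrk1: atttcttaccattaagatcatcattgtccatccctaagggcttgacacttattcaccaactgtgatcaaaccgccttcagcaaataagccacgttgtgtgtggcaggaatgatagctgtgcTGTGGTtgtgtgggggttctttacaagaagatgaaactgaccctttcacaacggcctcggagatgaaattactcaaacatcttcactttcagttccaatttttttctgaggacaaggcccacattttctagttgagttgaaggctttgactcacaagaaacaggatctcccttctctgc

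Ncr1 has the letters at 2 places, once on each strand, and Klrb1c and Klrk1 have them at 1 place. None of the 5 windows of Klra4, Klra7 and Klra8 holds them. The Klra genes encode the Ly49 receptors and arose by duplication, which shows in their promoters: the windows of Klra4 (chr6:130067222-130067521) and Klra8 (chr6:130129849-130130148), both on the minus strand, were aligned with 259 identical bases over 301 columns (86.0%), against 74.7% for Klra4 with Klra7 and 75.8% for Klra7 with Klra8. The closest pair is printed to show this likeness, and no capitals are used because the letters searched above as RUNX core are absent.
Klra4: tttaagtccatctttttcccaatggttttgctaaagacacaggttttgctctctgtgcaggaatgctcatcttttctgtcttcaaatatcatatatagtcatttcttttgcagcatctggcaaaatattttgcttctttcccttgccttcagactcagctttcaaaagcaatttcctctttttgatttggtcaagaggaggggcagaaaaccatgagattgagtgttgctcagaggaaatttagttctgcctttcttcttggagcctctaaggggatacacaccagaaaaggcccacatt
Klra8: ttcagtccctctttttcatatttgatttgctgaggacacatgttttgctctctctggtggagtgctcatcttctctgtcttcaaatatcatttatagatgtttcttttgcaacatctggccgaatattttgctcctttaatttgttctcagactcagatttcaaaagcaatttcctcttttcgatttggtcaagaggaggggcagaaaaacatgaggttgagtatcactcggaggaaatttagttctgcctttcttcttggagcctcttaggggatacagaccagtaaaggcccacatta

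This likeness bears on the counts, since reads that align to several places are listed at 0 in all files and may be missing. In the GENCODE M21 transcripts, 33.1% of the 50-base stretches of Klra8 also occur in transcripts of other genes, chiefly Klra14-ps and Klra9, and 14.4% of its 100-base stretches do. Klra7 shares 12.3% of its 50-base stretches, with Klra13-ps, and Klra4 shares 4.68%, mostly with Klra1. Klrc1 shares 38.6%, chiefly with its neighbor Klrc2, and Klrb1c 17.0%, in part with Gm44511, whose exons overlap those of Klrb1c over 413 bases on the same strand. Ncr1, Klrd1, Klrk1 and Il2rb share none, and Klre1 0.308%. The levels of Klra8, Klrc1, Klra7 and Klrb1c are therefore less certain than those of Ncr1, Klrd1, Klrk1, Klre1 and Il2rb.

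Each library held 22101124 to 29037715 counts on genes, and all 10 receptor genes had enough counts to be among the 15696 tested. The melanoma markers Dct, Tyrp1, Pmel, Tyr, Mlana, Sox10 and Mitf were read in every tumor, together at 18811 to 27174 CPM in control and 18822 to 19058 CPM in knockout tumors. Of these 7, edgeR called 1, Dct, lower in knockout tumors (8521 ± 1703 and 5079 ± 64.3 CPM, log2 fold change -0.75, adjusted p = 0.0434), as did DESeq2 and limma-voom, and the edgeR call ended without vector control tumor 2 or 3 or any knockout tumor. Over all genes edgeR called 2.75% lower, and DESeq2 8.12% of its tested genes. CPM, the usual depth-scaled count, was computed here with library sizes scaled by TMM (trimmed mean of M-values). Vector control tumor 1 had the lowest summed level of pan-leukocyte markers, 282 CPM against 447 to 665 CPM in the other 5, and skeletal muscle markers (Ckm, Acta1, Myh4, Mylpf, Tnnt3) ranged from 16.6 to 6287 CPM in control and from 483 to 5855 CPM in knockout tumors. Keratinocyte genes Krt5 and Krt14 had no count in any tumor.

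The 10 receptor genes had higher mean levels in ATM KO tumors than in vector control tumors, but none passed the test over all genes. edgeR's quasi-likelihood test with Benjamini-Hochberg adjustment called 0 of 10 at an adjusted p below 0.05, where it called 2.21% of all tested genes higher and 2.75% lower. Il2rb and Klrc1, 2 of the 10, had an unadjusted p below 0.05, against 10.6% of all genes higher in knockout tumors. DESeq2, which gave an adjusted p for 7 of the 10, called 1 higher, Il2rb, with 6.5% of its tested genes called higher, and limma-voom called 0 of 10, with 1.97% of genes. All 10 log2 fold changes lay above 0, as did 49.1% of those of all genes, and their median was 0.56 (range 0.20 to 0.88) beside -0.01 over all genes tested. The groups did not overlap for 1 of the 10, Il2rb, and 14.3% of all genes had every knockout tumor above every control tumor. The members are often transcribed in the same cells, so they do not count as separate evidence of a direction.

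**Figure D1:**
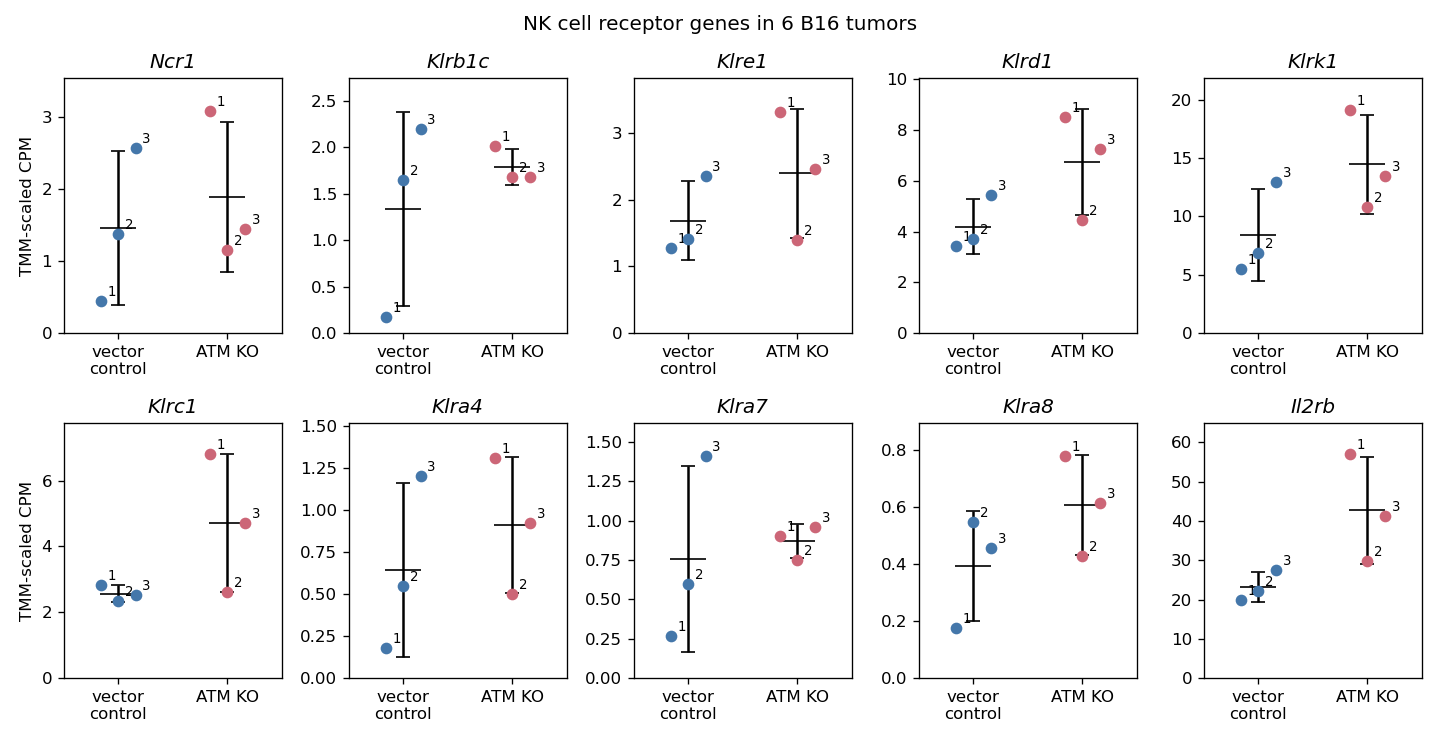
Level of each of the 10 receptor genes (TMM-scaled CPM, linear axes from 0) in the 3 vector control tumors (blue) and 3 ATM KO tumors (red), numbered as in the labels, with black bars for the mean and SD of each group. ATM KO tumor 1 is the highest point in 8 of the 10 panels, vector control tumor 1 the lowest in 9, and Il2rb is the panel in which the groups do not overlap.

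Ncr1 encodes NKp46, an activating receptor that marks NK cells and related innate lymphoid cells across mouse tissues. Its level was 0.442, 1.37 and 2.57 CPM in vector control tumors 1, 2 and 3, respectively, and 3.08, 1.15 and 1.44 CPM in ATM KO tumors 1, 2 and 3, from 10, 30 and 62 and from 75, 32 and 42 counts. Vector control tumor 3 lay above 2 of the knockout tumors and vector control tumor 1 below all other tumors, so the groups overlapped. The exact Poisson interval of vector control tumor 1 (95%, which covers counting error only) ran from 0.212 to 0.813 CPM and that of vector control tumor 3 from 1.97 to 3.29 CPM, so these control tumors differed by more than counting error. The group means were 1.46 ± 1.06 and 1.89 ± 1.04 CPM (SD, n = 3 per group). The log2 fold change was 0.36 ± 0.67 (SE, adjusted p = 0.820 in edgeR) with a 95% interval from -1.25 to 1.97. The difference fell below 0 when vector control tumor 1 was left out (-0.07) or when ATM KO tumor 1 was (-0.19), and it was 1.06 without vector control tumor 3.

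Klrb1c encodes the activating receptor NKR-P1C, the antigen by which NK cells of C57BL/6 mice are usually sorted. It was read at 0.177, 1.65 and 2.19 CPM in vector control tumors 1, 2 and 3, respectively, and at 2.01, 1.68 and 1.68 CPM in ATM KO tumors 1, 2 and 3. Vector control tumor 1, with 4 counts, stood alone: its Poisson interval ended at 0.453 CPM, while the other 5 tumors lay between 1.65 and 2.19 CPM. The log2 fold change of 0.41 ± 0.73 (edgeR adjusted p = 0.809; interval -1.35 to 2.18) became -0.10 without that tumor and 0.98 without vector control tumor 3.

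Klrk1 encodes NKG2D, the activating receptor for stress-induced ligands on infected and transformed cells. Its level was 5.48, 6.90 and 12.9 CPM in vector control tumors 1, 2 and 3, respectively, and 19.1, 10.8 and 13.4 CPM in ATM KO tumors 1, 2 and 3. Both lower control tumors lay below every knockout tumor, while vector control tumor 3 lay between ATM KO tumors 2 and 3. Means were 8.43 ± 3.94 and 14.5 ± 4.23 CPM, a log2 fold change of 0.78 ± 0.37 (edgeR adjusted p = 0.281; interval -0.12 to 1.68), which was 1.23 without vector control tumor 3 and 0.52 without ATM KO tumor 1. Per Ncr1 count the control tumors held 12.4, 5.03 and 5.03 Klrk1 counts and the knockout tumors 6.21, 9.47 and 9.36, and this ratio did not separate the groups (two-sided exact permutation p = 0.8, the smallest possible being 0.1).

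Klrd1 encodes CD94, the chain that pairs with the NKG2 receptors. It was read at 3.45, 3.70 and 5.42 CPM in vector control tumors 1, 2 and 3, respectively, and at 8.53, 4.44 and 7.25 CPM in ATM KO tumors 1, 2 and 3, so that ATM KO tumor 2 alone fell within the control range. The log2 fold change was 0.68 ± 0.31 (edgeR adjusted p = 0.246; interval -0.05 to 1.41). Klrc1 encodes NKG2A, the inhibitory partner of CD94, which binds the class I molecule Qa-1. Its control levels were close together, 2.83, 2.33 and 2.53 CPM, and its knockout levels were spread, 6.81, 2.61 and 4.72 CPM. ATM KO tumors 1 and 3 stood above all controls and ATM KO tumor 2 between them, with a log2 fold change of 0.88 ± 0.36 (edgeR adjusted p = 0.208; interval 0.02 to 1.73), which was 0.51 without ATM KO tumor 1. Klrc1 counts per Klrd1 count were 0.821, 0.630 and 0.466 in control and 0.798, 0.589 and 0.651 in knockout tumors, means of 0.639 ± 0.178 and 0.679 ± 0.108 (exact permutation p = 0.7), so inhibitory and shared chain were read in overlapping proportions in both groups.

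Klre1 encodes a further lectin-like receptor chain, which pairs with the products of Klri1 and Klri2. It was read at 1.28, 1.42 and 2.36 CPM in vector control tumors 1, 2 and 3, respectively, and at 3.32, 1.40 and 2.46 CPM in ATM KO tumors 1, 2 and 3. ATM KO tumors 1 and 3 were the highest of the 6, and ATM KO tumor 2 lay between vector control tumors 1 and 2 (log2 fold change 0.50 ± 0.40, edgeR adjusted p = 0.527). Leaving out ATM KO tumor 1 gave 0.19, and leaving out vector control tumor 3 gave 0.83. Its possible partners Klri1 (0.91 ± 0.61) and Klri2 (0.28 ± 0.44) did not pass either, with adjusted p-values of 0.445 and 0.777.

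Klra4 and Klra8 encode the activating receptors Ly49D and Ly49H, which signal through DAP12, and Klra7 encodes the inhibitory Ly49G. These were the least abundant of the set by counts. Klra4 had 4, 12 and 29 counts in vector control tumors 1, 2 and 3, respectively, and 32, 14 and 27 in ATM KO tumors 1, 2 and 3, or 0.177, 0.549 and 1.20 against 1.31, 0.501 and 0.924 CPM. ATM KO tumor 1 lay just above the highest control tumor and the other knockout tumors lay inside the control range (log2 fold change 0.49 ± 0.67, edgeR adjusted p = 0.739). Its difference was 0.05 without vector control tumor 1, 0.13 without ATM KO tumor 1, 1.33 without vector control tumor 3 and 0.78 without ATM KO tumor 2. Klra7 had 6, 13 and 34 counts in control and 22, 21 and 28 in knockout tumors, or 0.265, 0.594 and 1.41 against 0.902, 0.752 and 0.958 CPM. Here the highest tumor was vector control tumor 3 and the 3 knockout tumors lay inside the control range (0.20 ± 0.56, adjusted p = 0.889), and the difference was -0.21 without vector control tumor 1 and 1.02 without vector control tumor 3. Klra8 had 4, 12 and 11 counts in control and 19, 12 and 18 in knockout tumors, or 0.177, 0.549 and 0.455 against 0.779, 0.430 and 0.616 CPM (0.62 ± 0.47, adjusted p = 0.501; interval -0.50 to 1.74), and its difference ran from 0.27 without vector control tumor 1 to 0.94 without vector control tumor 2. At this depth the Poisson intervals of Klra8 overlapped between most tumors, such as 0.284 to 0.958 CPM in vector control tumor 2 and 0.365 to 0.973 CPM in ATM KO tumor 3.

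Il2rb encodes the signaling chain shared by the receptors for interleukin-2 and interleukin-15. It was read at 19.9, 22.1 and 27.5 CPM in vector control tumors 1, 2 and 3, respectively, and at 57.0, 29.9 and 41.1 CPM in ATM KO tumors 1, 2 and 3. All knockout tumors lay above all control tumors, although vector control tumor 3 and ATM KO tumor 2 were close. Means were 23.2 ± 3.92 and 42.7 ± 13.6 CPM, 1.84-fold apart in the fit, with a log2 fold change of 0.88 ± 0.25 and a 95% interval from 0.26 to 1.49. The adjusted p was 0.108 in edgeR and 0.00938 in DESeq2, and it ran from 0.00938 to 0.268 over all alternatives. Counts of Il2rb per count of Il2rg, the common gamma chain that completes the receptor, were 2.54, 1.58 and 1.82 in control and 2.95, 2.39 and 2.62 in knockout tumors, and overlapped (exact permutation p = 0.2). Per count of Ptprc, the leukocyte antigen CD45, they were 0.306, 0.211 and 0.210 in control and 0.391, 0.284 and 0.301 in knockout tumors, and overlapped as well (exact permutation p = 0.3). Across the 9 ratios of gene pairs computed, the adjusted permutation p was 0.675 or more.

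**Figure D2:**
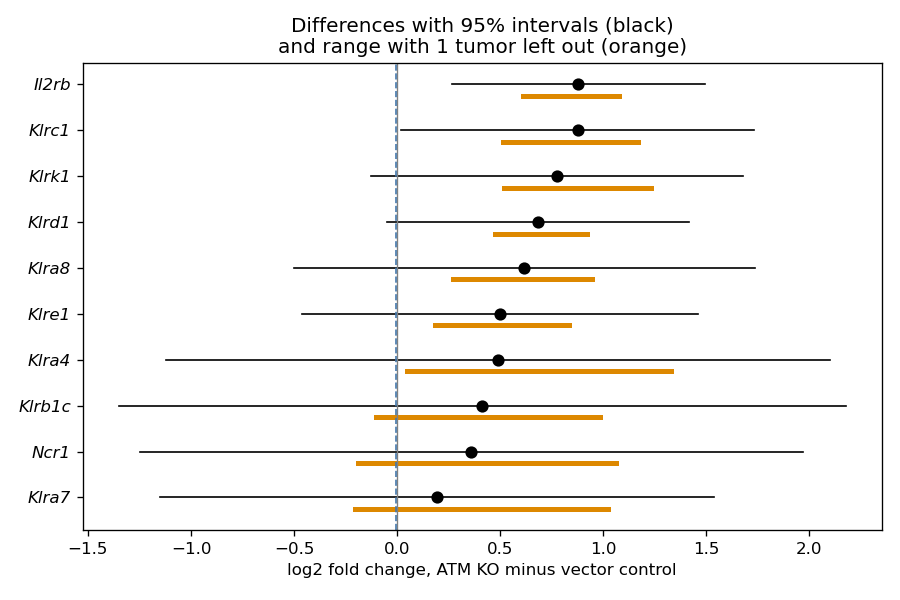
Log2 fold change of each receptor gene (ATM KO minus vector control, points) with its 95% interval (black lines) and the range of values with 1 tumor left out (orange bars); the grey line is 0 and the dashed line the median over all genes. Intervals of 8 genes include 0, those of Il2rb and Klrc1 do not before adjustment, and the orange bars of Ncr1, Klrb1c and Klra7 cross 0.

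The size of the difference moved with the tumor left out and, for some genes, with the tool. limma-voom gave 0.98 for Klrb1c and 0.47 for Klra7, and its median over the 10 genes was 0.70. In edgeR the median log2 fold change of the 10 genes was 0.30 without vector control tumor 1, with 7 of 10 above 0, and 1.00 without vector control tumor 3. It was 0.36 without ATM KO tumor 1 and 0.79 without ATM KO tumor 2. In no such fit did edgeR call any of the 10.

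Levels between genes can be compared only per length of transcript, here as CPM per kilobase of merged exons averaged over the 6 tumors. The order was Il2rb (7.68), Klrd1 (4.27), Klrc1 (1.83), Klrk1 (1.59), Ncr1 (1.09), Klra7 (0.643), Klra4 (0.624), Klre1 (0.584), Klrb1c (0.528) and Klra8 (0.425). Il2rb lay above Klrd1, Klrd1 above Klrc1, Klrk1 above Ncr1 and Ncr1 above Klra7 in 6 of 6 tumors. Klrc1 and Klrk1 changed places in 2 of the 6, and Klre1 lay above Klrb1c in 3 of 6, so these neighbors do not differ beyond their spread. Klra7 over Klra4, Klra4 over Klre1 and Klrb1c over Klra8 held in 5 of 6 tumors each. The shared stretches of Klrc1, Klrb1c and the Klra genes limit how closely their place in this order can be read. Merged exons cover all annotated transcripts of a gene, 7183 bases for Klrk1 and 1281 for Klrd1, and which transcripts were made was not tested. Before division by length Klrk1 lay above Klrd1, with means of 8.43 and 14.5 against 4.19 and 6.74 CPM in control and knockout tumors.

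The tumors fell into 2 broad patterns over the set. In the first, shown by Ncr1, Klrb1c, Klra4 and Klra7, vector control tumor 1 was the lowest and vector control tumor 3 was the highest or second highest of all: vector control tumor 3 was 5.80-fold above vector control tumor 1 for Ncr1, 12.4-fold for Klrb1c, 6.79-fold for Klra4 and 5.30-fold for Klra7. These ratios rest on 10, 4, 4 and 6 counts in vector control tumor 1. For Klra4 and Klra7 its Poisson intervals overlapped those of vector control tumor 2 and ATM KO tumor 2. In the second, shown by Il2rb and Klrc1, the 3 controls were within 1.38-fold of each other (Il2rb) or nearly level (Klrc1), and ATM KO tumors 1 and 3 stood above. Klrk1, Klrd1, Klre1 and Klra8 lay between these patterns. The grouping was made after the values were seen and carries no test.

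**Figure D3:**
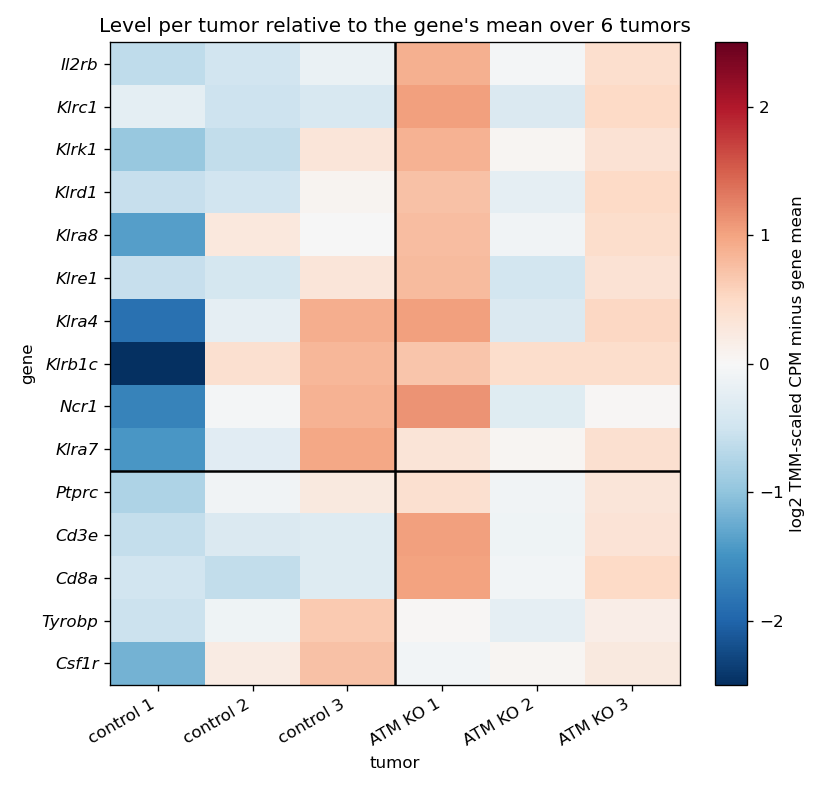
Level of each receptor gene (upper 10 rows) and of Ptprc, Cd3e, Cd8a, Tyrobp and Csf1r (lower rows) in each tumor as log2 CPM minus the gene's mean over the 6 tumors, red for higher and blue for lower. Vector control tumor 1 is blue in all rows; vector control tumor 3 is red for Ncr1, Klra4, Klra7 and Csf1r and blue for Cd3e, Cd8a and Klrc1.

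By the likeness rule, the 8 genes whose log2 CPM followed the mean of the 10 receptors most closely over the 6 tumors were taken from 11901 protein-coding genes with at least 2 CPM. They included Il18rap (Pearson r = 0.993, Spearman rho = 0.943), Coq8b (0.990, 1), Ifit1bl1 (0.989, 1), Cyb561a3 (0.988, 1), Mboat7 (0.984, 0.943), Sept1 (0.984, 0.943) and Ptprc (0.984, 1). They were selected as the highest of many over 6 tumors, 208 candidates having r above 0.9, so no p is given. Il18rap encodes a chain of the interleukin-18 receptor, and its levels were 4.64, 7.13 and 11.5 CPM in control and 16.5, 8.48 and 11.5 CPM in knockout tumors. Ptprc was at 65.0, 105 and 131 CPM and at 146, 105 and 137 CPM. Its Pearson correlation with the receptor mean was what selected it. The summed pan-leukocyte markers had another order of tumors than Ptprc, with the highest level in vector control tumor 3 (665 CPM, against 573 CPM in ATM KO tumor 1). The Ptprc difference of 0.36 ± 0.27 did not pass (edgeR adjusted p = 0.494).

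Summed T cell transcripts had the same order of tumors as Il2rb, but not as Klrc1. Klrk1 and Klrd1 departed from that order only in that vector control tumor 3 lay above ATM KO tumor 2. Their own order was the same as that of the leukocyte gene Ptprc, and Coq8b, Ifit1bl1 and Cyb561a3 had it too. How many of all genes had either order was not counted. Of 11 alpha-beta T cell markers 0 passed in edgeR, 8 had an unadjusted p below 0.05 with higher levels, and 3 (Cd3d, Cd8a and Cd8b1) were called higher by DESeq2, with a median log2 fold change of 0.79. Over all genes 10.6% had such an unadjusted p and 6.5% were called higher by DESeq2. Of the 11 log2 fold changes 10 lay above 0 and 1, that of Cd4, below (-0.15 ± 0.58, 3.39 ± 2.15 and 3.06 ± 0.758 CPM). The summed level of the 11 markers was 40.6, 52.2 and 55.7 CPM in vector control tumors 1, 2 and 3, respectively, and 120, 57.6 and 86.3 CPM in ATM KO tumors 1, 2 and 3, in the same order as Il2rb, and none was at 0. Cd8a, part of the co-receptor by which cytotoxic T cells bind class I and the most abundant of them, was at 10.4, 9.51 and 11.6 CPM in control and 29.1, 13.9 and 20.5 CPM in knockout tumors, and Trac, the constant region of the T cell receptor alpha chain, followed in abundance (6.38 ± 1.74 and 11.1 ± 5.26 CPM). Klrk1 counts per Cd8a count were 0.528, 0.726 and 1.11 in control and 0.656, 0.783 and 0.657 in knockout tumors (exact permutation p = 0.8). Of 5 gamma-delta T cell markers 2 could be tested, 0 passed in edgeR and 1, Tcrg-C2, was higher at an unadjusted p below 0.05, with summed levels of 0.663 to 1.53 CPM in control and 1.78 to 2.54 CPM in knockout tumors, mostly from Trdc and Tcrg-C2. The part of T cells in the levels of Klrk1, Klrd1, Klrc1 and Il2rb was not tested.

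Markers of type 1 innate lymphoid cells, relatives of NK cells that stay in tissues, took no common direction. In edgeR 1 of 5, Zfp683, passed and was higher in knockout tumors, where 2.21% of all genes were called higher. DESeq2 called 1, Itga1, lower, with 8.12% of its tested genes called lower. Log2 fold changes lay above 0 for 2 of the 5 and below for 3. At an unadjusted p below 0.05, 2 were higher and 1 lower, against 10.6% and 12.3% of all genes. Cxcr6, the other higher marker, was at 4.62 ± 0.560 and 9.16 ± 3.84 CPM (0.99 ± 0.34, edgeR adjusted p = 0.147). Zfp683, which encodes the transcription factor Hobit of tissue-resident lymphocytes, T cells included, had 0, 2 and 1 counts in control and 11, 13 and 13 in knockout tumors (a log2 difference of 3.23 ± 0.64, edgeR adjusted p = 0.0445). That fold change is fitted over very few counts, and its call ended with the removal of vector control tumor 2 or 3 or of any knockout tumor (adjusted p 0.102 to 0.172), while DESeq2 gave no adjusted p. Itga1 (74.3 ± 11.7 and 55.6 ± 5.17 CPM, adjusted p = 0.126 in edgeR and 0.0411 in DESeq2) and Il7r (12.7 ± 4.53 and 10.9 ± 4.71 CPM), the most abundant of the list, are also transcribed by other cells, and the summed level was 89.7 to 115 CPM in control and 78.2 to 96.3 CPM in knockout tumors.

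Among the other Ly49 genes 3 of 8 had enough counts to test, and 0 passed in edgeR or had an unadjusted p below 0.05. Klra2 and Klra17 encode Ly49 proteins made by myeloid and plasmacytoid dendritic cells, and Klra2 was the most abundant of the family at 11.6 ± 5.02 and 15.2 ± 2.97 CPM (log2 fold change 0.39 ± 0.32). Klra17 was at 0.442, 0.412 and 1.20 CPM in control and 2.83, 0.501 and 1.95 CPM in knockout tumors (1.34 ± 0.72, adjusted p = 0.328), and Klra3 was at 0.585 ± 0.129 and 1.12 ± 0.605 CPM (0.93 ± 0.45, adjusted p = 0.278). Of 9 further lectin-like receptors in the files, 6 were tested and 0 passed in edgeR or had an unadjusted p below 0.05. Klrc2, the activating NKG2C partner of CD94, was at 0.221, 0.549 and 1.08 CPM in control and 1.68, 0.752 and 1.06 CPM in knockout tumors (0.90 ± 0.58, adjusted p = 0.420), and its reads are the ones Klrc1 may share. Klrb1b, an inhibitory receptor for the product of Clec2d, was at 2.38 ± 1.36 and 3.69 ± 1.78 CPM (0.63 ± 0.56). Klrg1, a marker of mature NK cells, was at 0.436 ± 0.262 and 0.443 ± 0.233 CPM.

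Of 9 other activating and inhibitory receptors of NK cells, most of them shared with T cells, 0 passed in edgeR, while 3 had higher levels at an unadjusted p below 0.05. Those were Tigit (1.72 ± 0.420 and 3.60 ± 1.38 CPM, log2 fold change 1.07 ± 0.35, adjusted p = 0.136), Cd96 (0.80 ± 0.30, adjusted p = 0.179) and Cd226 (0.74 ± 0.29, adjusted p = 0.198), receptors that compete for ligands of the nectin family. For Tigit and Cd96 the groups did not overlap. Among all genes, 10.6% had such an unadjusted p and 14.3% had every knockout tumor above every control tumor. Cd27 (0.77 ± 0.39) was next by p, and the list median was 0.77. Over the 9 lists of related genes limma-voom called 0, and DESeq2 called 5 higher (Ptpn6, Cadm1, H2-T23, Tox and Ccl5) and 1 lower (Stat5b), where it called 6.5% of all its tested genes higher and 8.12% lower.

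The adaptors of the receptors were mostly abundant genes shared with myeloid cells, and 0 of 11 passed in edgeR, 1 being higher at an unadjusted p below 0.05. Over all genes 10.6% were higher at such a p. Hcst, which encodes DAP10, the partner of NKG2D, was at 0.354, 0.823 and 1.16 CPM in control and 1.27, 0.430 and 0.958 CPM in knockout tumors. Tyrobp, which encodes DAP12, was at 44.1 ± 19.0 and 41.4 ± 5.47 CPM (-0.09 ± 0.31). By p the list was led by Ptpn6, the phosphatase SHP-1 that inhibitory receptors recruit (88.8 ± 18.4 and 126 ± 17.8 CPM, 0.50 ± 0.17, adjusted p = 0.148 in edgeR and 0.0463 in DESeq2), Zap70 (0.63 ± 0.33), Cd247 (0.71 ± 0.46) and Sh2d1b1 (0.86 ± 0.68). The median over this list was 0.18.

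Ligands of NK receptors were read mainly from genes that tumor cells can also transcribe, and 0 of 15 tested passed in edgeR, while unadjusted p-values were below 0.05 for 3 higher genes and 1 lower gene. Over all genes 10.6% were higher and 12.3% lower at such a p. H60b, a ligand of NKG2D, had 17, 10 and 16 counts in control and 3, 3 and 8 in knockout tumors (a log2 difference of -1.85 ± 0.45, adjusted p = 0.0716), with no overlap of the groups, where 15.4% of all genes had every knockout tumor below every control tumor. Raet1d, another NKG2D ligand gene, had the higher mean in knockout tumors, at 5.43 ± 0.639 and 7.23 ± 0.140 CPM (0.41 ± 0.15, adjusted p = 0.176), and Ulbp1 was at 15.5 ± 3.65 and 13.5 ± 1.02 CPM. H2-T23, which encodes the Qa-1 molecule bound by CD94 with NKG2A, was at 64.0, 69.2 and 85.0 CPM in control and 133, 84.9 and 133 CPM in knockout tumors (0.68 ± 0.20, adjusted p = 0.115 in edgeR), and DESeq2 called it higher (adjusted p = 0.0116). Cadm1, a ligand of the receptor encoded by Crtam, was at 381 ± 42.3 and 481 ± 30.7 CPM (0.34 ± 0.10, adjusted p = 0.117 in edgeR and 0.0185 in DESeq2). For Raet1d and Cadm1 every knockout tumor lay above every control tumor, as was so for 14.3% of all genes. The class I genes H2-K1 (1304 ± 48.1 and 1500 ± 293 CPM, 0.20 ± 0.15) and H2-D1 (1125 ± 60.5 and 1105 ± 207 CPM, -0.02 ± 0.15), whose products Ly49 receptors bind, were far more abundant. The list median was 0.05.

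**Figure D4:**
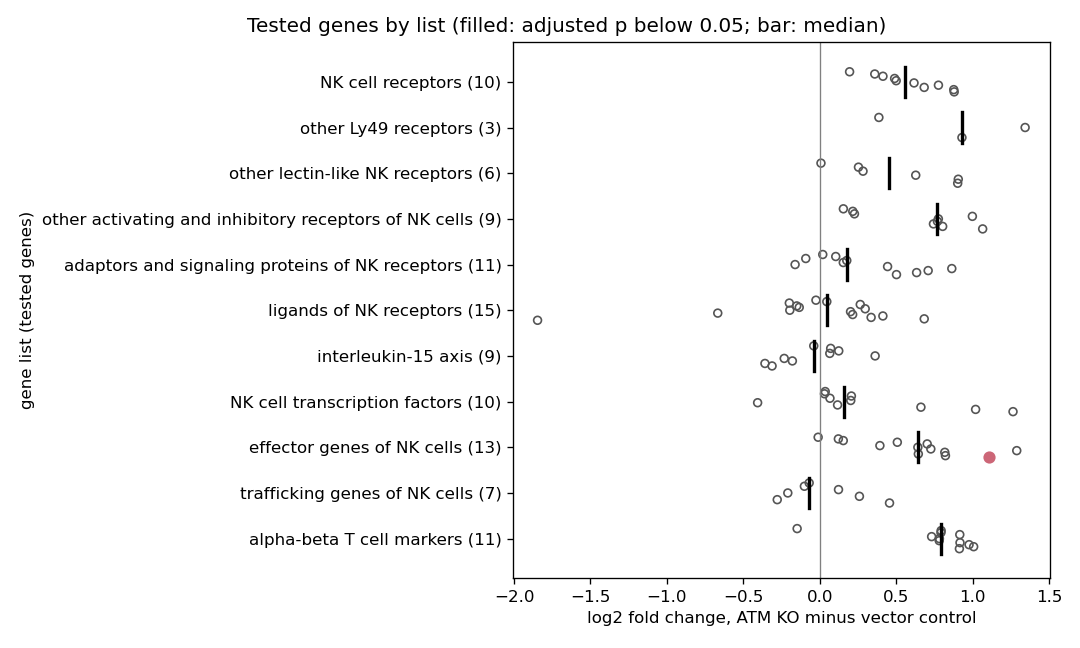
Log2 fold changes (ATM KO minus vector control) of the tested genes of the receptor set, the related lists and the alpha-beta T cell markers, with the number tested in brackets, open circles for genes that did not pass and filled for an adjusted p below 0.05, and a black bar at the list's median. The lists of receptors and of alpha-beta T cell markers have medians between 0.46 and 0.93, the interleukin-15 axis and trafficking lists have medians of -0.04 and -0.07, and Ccl5 is the filled point.

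In the interleukin-15 axis 0 of 9 tested genes passed in edgeR, with 2 lower at an unadjusted p below 0.05, where 12.3% of all genes were lower. Il2rg was at 12.3 ± 3.94 and 15.8 ± 3.40 CPM (log2 fold change 0.36 ± 0.28, adjusted p = 0.514). Il15, the cytokine, was at 4.72 ± 0.550 and 4.60 ± 0.503 CPM (log2 fold change -0.04 ± 0.18). Il15ra, which presents it, was at 14.6 ± 1.82 and 11.4 ± 1.28 CPM (-0.36 ± 0.14, adjusted p = 0.204), and Stat5b, which carries the signal to the nucleus, at 115 ± 13.8 and 92.3 ± 1.68 CPM (-0.31 ± 0.10, adjusted p = 0.118 in edgeR and 0.0338 in DESeq2). Stat5a (-0.18 ± 0.09) and Jak3 (-0.23 ± 0.15) followed by p. The list median was -0.04, with 4 of the 9 above and 5 below 0.

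Of 10 transcription factor genes of NK cells 0 passed in edgeR, and 2 were higher at an unadjusted p below 0.05, as were 10.6% of all genes. Tbx21 and Eomes encode the pair of T-box factors that drive NK cell maturation and are also made by effector T cells. Tbx21 was at 1.64, 1.42 and 2.48 CPM in control and 5.70, 2.18 and 3.39 CPM in knockout tumors (a log2 difference of 1.02 ± 0.41, adjusted p = 0.207). Eomes was at 1.19, 1.14 and 2.11 CPM and at 2.67, 1.93 and 2.46 CPM (0.66 ± 0.32, adjusted p = 0.276), with vector control tumor 3 again among the knockout tumors. Tox, a factor of lymphocyte development and of exhausted T cells, was at 2.53 ± 0.700 and 6.09 ± 2.72 CPM (1.26 ± 0.39, adjusted p = 0.120 in edgeR and 0.0308 in DESeq2). Id2 (0.12 ± 0.08) came next by p, and the list median was 0.16.

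Of 13 effector genes 1 rose in edgeR, where 2.21% of all genes were called higher. It was the chemokine gene Ccl5, made by both NK and T cells, with 6.77, 9.37 and 9.23 CPM in control and 24.1, 14.8 and 15.8 CPM in knockout tumors (a log2 difference of 1.11 ± 0.23, adjusted p = 0.0495). That call ended in 10 of 14 alternatives, among them the removal of any 1 tumor, with adjusted p-values from 0.000637 in DESeq2, which called it, to 0.174 with a replicate block. Fasl, the death ligand, was at 1.13 ± 0.136 and 2.01 ± 0.630 CPM (0.82 ± 0.31, adjusted p = 0.177), and Nkg7 (0.65 ± 0.30) and Ctsw (0.82 ± 0.38) followed by p. The list median was 0.65. Of 7 tested trafficking genes 0 passed, and 0 had an unadjusted p below 0.05. Cx3cr1 (0.46 ± 0.50), Cxcr4 (-0.28 ± 0.37) and Cxcr3 (0.26 ± 0.35) came first by p, with a list median of -0.07.

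Between the first and the last receptor gene on chromosome 6 the annotation holds 77 genes, of which 31 were tested. None of the 31 passed in edgeR, where 4.96% of all genes were called in either direction. Leaving out the 8 receptor genes of the set, 23 tested genes had a median log2 fold change of 0.10, and 16 of them lay above 0. These include Gabarapl1, an autophagy gene at 126 ± 22.8 and 135 ± 18.8 CPM (0.10 ± 0.16), and Cd69, an early activation antigen at 2.36 ± 0.179 and 2.42 ± 0.351 CPM (0.03 ± 0.21).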

How the data were processed

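RNA sequencing of 6 tumors was used, 1 library per file. The deposited values are raw counts per gene; the submitters' processing notes list HTSeq, SAMtools, STAR, cutadapt and Trim Galore, with no versions or roles, and mm10 and GRCm38 as builds. Whether counting used strand was not given in the sources used here. Summary rows of the counter were dropped: reads outside genes were 16.7% to 18.2% and ambiguous reads 1.21% to 1.38% of the reads listed. Gene coordinates and exon lengths come from GENCODE M21 (GRCm38), and promoter windows from RefSeq (GRCm38.p6).

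Counts were filtered with filterByExpr (minimum count 10, total 15), scaled by TMM and tested over all 15696 genes with the quasi-likelihood F test of edgeR 4.0.16 (robust dispersions, genotype as the term, Benjamini-Hochberg, threshold 0.05). Levels are mean ± SD of 3 tumors; a fold change is ATM KO minus vector control. SEs follow from the fold change and its F value. Ratios were tested by exact permutation, two-sided, over 20 assignments. Replicate libraries differed by more than sampling noise (chi-square over its degrees of freedom, 21.2 to 79.9). In simulated counts for this comparison, over 15441 genes, the test recovered 53.1% of 2-fold and 80.0% of 4-fold changes, and 14 of its 142 calls were unchanged genes. The changed genes were drawn from all tested genes, so these shares do not give the recovery at the counts of the receptor genes. Alternatives were other scalings and filters, DESeq2 1.42.0, limma-voom (limma 3.58.1), non-robust dispersions, a replicate block and each tumor left out.

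The receptor genes, gene lists, ratios and motifs were chosen with earlier results of these data known. Named were all 10 receptors, the 4 genes of smallest p and any called gene per related list, and of marker lists summed levels and the 2 most abundant genes; genes beyond this were chosen for their role or after their values were seen. A few genes that this rule names are not reported here.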

Additional observations from a re-analysis of the deposited data

How the results depend on the processing

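The direction of the 10 receptor genes was kept in 133 of 137 combinations of gene and alternative, over 14 alternatives. Many of these combinations fitted the same full set of tumors with another scaling, filter or model. They are not separate checks of the direction, and neither are genes often transcribed in the same cells. The share of all genes that kept their direction was not counted, so the tally does not measure robustness. All 4 exceptions came from fits with 1 tumor left out. The 4 exceptions were Ncr1 without vector control tumor 1 (-0.07) or ATM KO tumor 1 (-0.19), and Klrb1c (-0.10) and Klra7 (-0.21) without vector control tumor 1; without vector control tumor 3 these 3 genes were at 1.06, 0.98 and 1.02. The number of receptor genes called was 0 in edgeR and 1 with DESeq2. Over all genes 347 were called higher and 431 lower; DESeq2 called 920 and 1150, and leaving out 1 tumor gave 0 to 587 higher and 2 to 622 lower. Of the genes in the related lists edgeR called 1 higher and 0 lower, DESeq2 called 5 higher and 1 lower, and 0 were called higher with library size as the only scaling, with limma-voom or with non-robust dispersions; with 1 tumor left out 0 to 1 were called higher. With at least 1 CPM in 3 libraries, 7 of the 10 receptor genes could be tested. The labels do not say that equal replicate numbers mark paired tumors, and deviations of same-numbered tumors correlated at 0.04, -0.27 and -0.42; with a replicate block 0 genes were called higher and 0 lower, over all genes and in the related lists. The cause of these changes was not tested. With as few as 4 counts for Klrb1c, Klra4 and Klra8 in vector control tumor 1, depth limits what can be seen of these genes.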

Other observations

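Other host cell markers had the following summed levels, none at 0 in every tumor in these lists. B cell markers were at 1.28 to 17.7 CPM in vector control and 1.15 to 2.40 CPM in ATM KO tumors, led by Cd79b and Ms4a1. Macrophage markers, led by Lyz2 and Csf1r, were at 302 to 802 and 543 to 640 CPM. Dendritic cell markers, led by Itgax and Zbtb46, were at 20.3 to 44.1 and 40.4 to 47.3 CPM. Neutrophil markers, led by Csf3r and Retnlg, were at 9.64 to 26.9 and 14.2 to 15.9 CPM. Endothelial markers, led by Pecam1 and Cdh5, were at 136 to 226 and 107 to 129 CPM, without overlap of the groups, and DESeq2 called Cdh5 lower (adjusted p = 0.0351, against 0.131 in edgeR). The groups overlapped for the remaining marker, Kdr (35.4 ± 13.5 and 28.9 ± 7.15 CPM, edgeR adjusted p = 0.652). Over all genes 15.4% had every knockout tumor below every control tumor, and DESeq2 called 8.12% of its tested genes lower. Fibroblast markers, led by Col3a1 and Col1a1, were at 272 to 2934 and 1285 to 1501 CPM. Adipocyte markers, led by Cidec and Adipoq, were at 0 to 78.3 and 1.04 to 13.3 CPM, and erythroid markers, led by Hbb-bs and Hba-a1, at 51.6 to 598 and 7.19 to 375 CPM.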
